A study of Mus musculus with 48 samples.

Results

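The data described are the levels of a set of 9 genes named for homeostatic, or resting, microglia: *Aif1*, *Cx3cr1*, *P2ry12*, *Tmem119*, *Csf1r*, *Itgam*, *Siglech*, *Sall1* and *Gpr34*. They were taken by gene symbol from the batch-corrected tables of the substantia nigra (SN), where 9 of 9 were found among 19601 genes, and 9 of 9 passed the filter on low counts that left 14839 genes to test. Bulk RNA-seq had been performed on the SN of 48 male C57BL/6J mice, 12 per group, after unilateral injection of α-synuclein (α-syn) preformed fibrils (PFFs) or of α-syn monomer into the striatum, with breathing of 21% O2 or 11% O2. All mice carried an injection, so that no group was untreated. Mice were injected at 121 days of age and harvested 90 to 98 days later. The deposited design text puts all mice at 21% O2 for 6 weeks before the move to 11% O2, whereas the study's methods describe exposure over 12 weeks, and the labels do not settle which applies. The authors kept 42 mice, namely 11 monomer and 12 PFF mice at 21% O2 and 9 monomer and 10 PFF mice at 11% O2. The mice came in 3 batches, each a harvest date apart from 1 mouse of batch 3. Batch 1 held all 4 groups, batch 2 lacked monomer mice at 11% O2, and batch 3 lacked monomer mice at 21% O2.

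Microglia are the resident macrophages of the brain. Their survival depends on CSF1R, the receptor for the ligands CSF1 and IL-34, and their resting identity depends on TGF-β signaling and on the transcription factor SALL1. In the resting state they carry CX3CR1, which binds the neuronal chemokine fractalkine, and the nucleotide receptor P2RY12, which guides their processes toward ATP and ADP, and both are commonly lost when microglia become activated. In whole tissue, fewer microglia and less of a transcript per cell cannot be told apart.

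The genes sit on 8 chromosomes, and their positions on GRCm38 are those of the same identifiers in GENCODE vM21. *P2ry12* (ENSMUSG00000036353.13) lies at chr3:59216272-59262871 on the minus strand, *Siglech* (ENSMUSG00000051504.18) at chr7:55768178-55778925 on the plus strand, *Itgam* (ENSMUSG00000030786.18) at chr7:128062640-128118491 on the plus strand and *Aif1* (ENSMUSG00000024397.14) at chr17:35170991-35176068 on the minus strand. *Cx3cr1* (ENSMUSG00000052336.7) lies at chr9:119901616-120069879 and *Sall1* (ENSMUSG00000031665.7) at chr8:89027235-89044162, both on the minus strand. *Tmem119*, *Csf1r* and *Gpr34* lie on chromosomes 5, 18 and X. Counts were made without a strand setting in the methods, and exons of 2 genes overlap others by more than 100 bases. *Itgam* shared 3450 of its 5024 exon bases with *Gm49368* on the same strand, so that its level rests on how such reads were assigned and is uncertain. *Csf1r* shared 873 of 5774 exon bases with *Hmgxb3* on the opposite strand.

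Because the 9 genes moved together among mice, as given below, their upstream sequences were searched for the purine-rich core that the myeloid factor PU.1 binds, spelled GAGGAA or GGAAGT and read on both strands. RefSeq windows (GRCm38.p6) of 250 bases before a start were held for 6 of the 9 genes, with 8 starts in all. A match was present in 5 of these 8 windows, beside 36.7% of the 32851 windows of all genes, so that such letters are common. The 60 bases around the match nearest the start are shown for 4 genes, on the strand of the gene and with the match in capitals. The match lay 51 bases before the start in *P2ry12* (chr3:59263004-59263063), 156 in *Siglech* (chr7:55768001-55768060), 15 in *Itgam* (chr7:128062580-128062639) and 7 in *Aif1* (chr17:35176053-35176112), counted from the first base of the match.
*P2ry12*: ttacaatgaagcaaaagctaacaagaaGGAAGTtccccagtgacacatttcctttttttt
*Siglech*: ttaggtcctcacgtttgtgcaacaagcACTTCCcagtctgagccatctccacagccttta
*Itgam*: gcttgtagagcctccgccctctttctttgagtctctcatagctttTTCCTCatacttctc
*Aif1*: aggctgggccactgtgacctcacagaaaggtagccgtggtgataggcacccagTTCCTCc

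All 9 genes were expressed in each of the 42 mice. Batch-corrected counts ran from 81 for *Aif1* in the mouse where it was lowest to 4109 for *Csf1r* where it was highest. Levels are given as batch-corrected TPM, a share of transcripts that accounts for their length. *Csf1r* was the most abundant at 131 ± 22.7 TPM (mean ± SD, n = 42 mice), at the 90.4th percentile of the genes tested, and *Itgam*, one chain of the complement receptor CR3, was the least abundant at 14.0 ± 2.45 TPM, at the 37.1st percentile. Between them stood *P2ry12* at 102 ± 22.0 TPM, *Cx3cr1* at 92.4 ± 15.3 TPM and the surface protein gene *Tmem119* at 87.3 ± 15.6 TPM. The lipid receptor gene *Gpr34* stood at 50.9 ± 11.6 TPM, followed by the lectin gene *Siglech* at 36.6 ± 8.05 TPM and *Sall1* at 36.5 ± 5.32 TPM. *Aif1*, which encodes the actin-binding protein IBA1, stood at 26.2 ± 6.08 TPM. The last place of *Itgam* is uncertain because of its overlap with *Gm49368*. Most neighbors in this order kept it within single mice, since *Tmem119* exceeded *Gpr34*, *Gpr34* exceeded *Siglech* and *Aif1* exceeded *Itgam* in 42 of 42 mice. *Csf1r* exceeded *P2ry12* in 39 mice and *Sall1* exceeded *Aif1* in 38. *Siglech* exceeded *Sall1* in 18 of 42 mice, *P2ry12* exceeded *Cx3cr1* in 28 and *Cx3cr1* exceeded *Tmem119* in 31, so that these neighbors were not separated beyond the spread between mice.

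**Figure D1:**
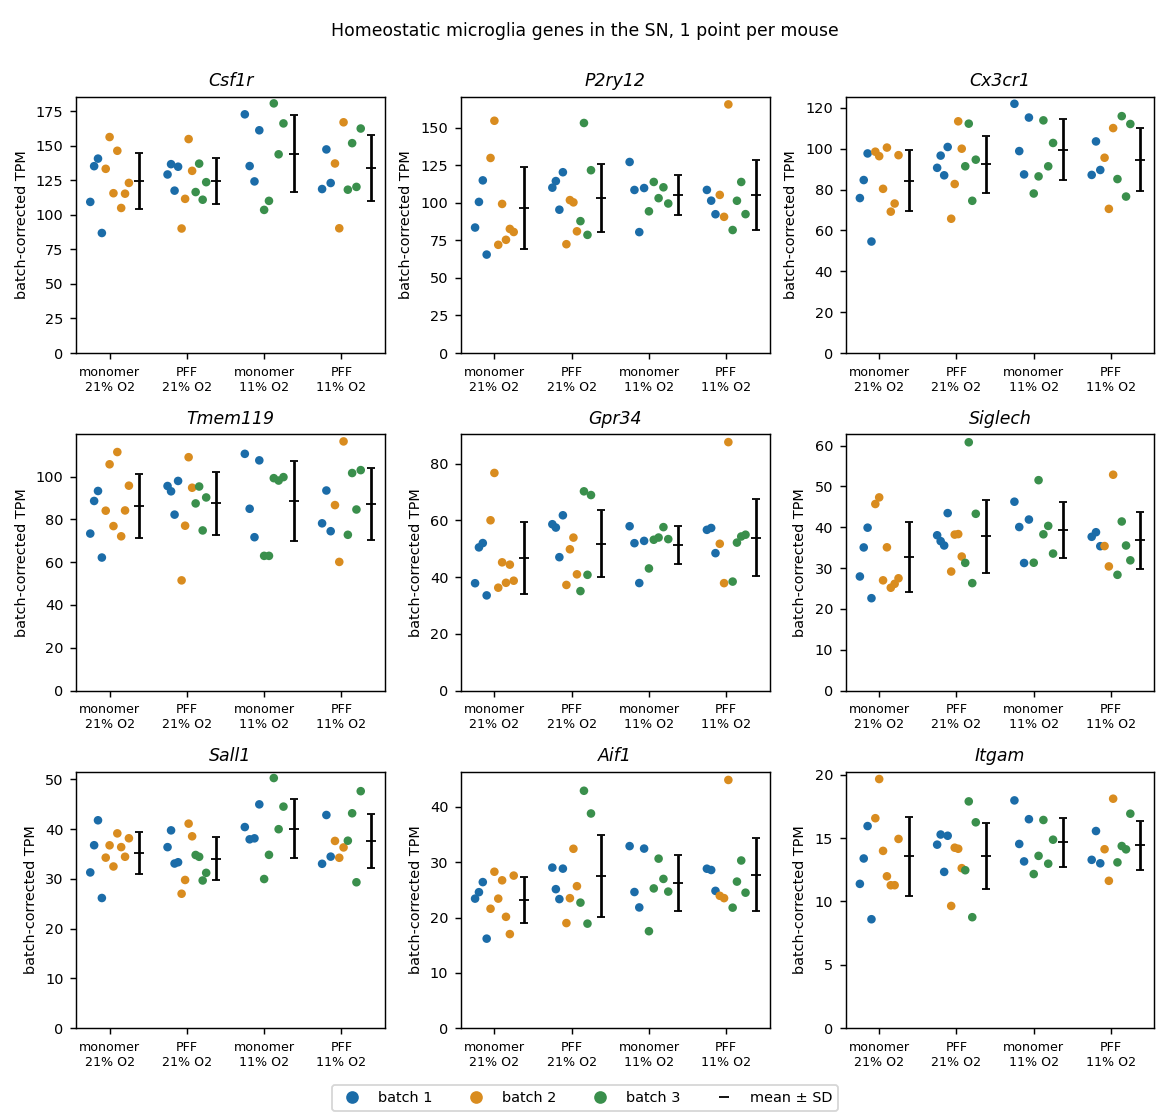
Batch-corrected TPM (vertical axis, from 0) of the 9 homeostatic microglia genes in the 4 groups, with 1 point per mouse colored by batch and the mean ± SD of each group as a bar. The 4 groups overlap for each of the 9 genes, and the highest point for *Aif1*, *P2ry12* and *Gpr34* is the same PFF mouse at 11% O2.

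The 42 libraries held 12902996 to 17120921 counts each. Before batch correction, the summed TPM of the 9 genes differed by batch, with medians of 484 in batch 1, 539 in batch 2 and 602 in batch 3. 1 library stood apart at the low end. In monomer replicate 4 at 21% O2, of batch 1, the 9 genes summed to 249.7 TPM, the lowest of the 42 mice, while 9 dopaminergic neuron genes summed to 5328 TPM and 6 pan-neuronal genes to 2961 TPM, both the highest of the 42. Results that rest on batch 1 are therefore given with and without it. At the other end, the 9 genes summed to 698 TPM in PFF replicate 8 at 11% O2, of batch 2. The tissue held SN, with *Th*, the enzyme gene of dopamine synthesis, at 185.2 to 1153 TPM before correction in the 42 mice.

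PFFs against monomer at 21% O2 asks whether the levels of the 9 genes differ where α-syn aggregates form. In separate mice, the study reported a marked increase of *Aif1*, as *Iba1*, by RT–qPCR in the SN after PFF injection. It related this to microglial activation, so that *Aif1* is not read here as a marker of the resting state alone. In the RNA-seq data *Aif1* showed the largest difference among the 9 genes. Its levels ran from 16.2 through a median of 23.4 to 28.3 TPM in 11 monomer mice and from 18.9 through 25.4 to 42.9 TPM in 12 PFF mice. The ranges overlapped over most of their length, and 2 PFF mice of batch 3 lay above the rest of their group. The log2 fold change was 0.26 ± 0.13 (SE), with an adjusted p of 0.214 by the quasi-likelihood test of edgeR, adjusted over all genes by the Benjamini–Hochberg method. *Siglech* ran from 22.6 through 27.9 to 47.3 TPM with monomer and from 26.3 through 37.3 to 60.8 TPM with PFFs. Its groups overlapped as well, with a log2 fold change of 0.23 ± 0.12 and an adjusted p of 0.272 in the same test. *Gpr34*, *Cx3cr1* and *P2ry12* had log2 fold changes of 0.17, 0.15 and 0.12, and *Tmem119*, *Itgam*, *Csf1r* and *Sall1* of 0.04, 0.02, 0.02 and -0.03. None of the 9 genes was called at an adjusted p under 0.05 and a log2 fold change beyond 0.25, beside 3.7% of all genes. By edgeR 1 of the 9, *Aif1*, had an unadjusted p under 0.05, where 22.4% of all genes did. DESeq2 and limma called none of the 9 either, beside 2.78% and 2.24% of all genes, with 1 and 0 of them at an unadjusted p under 0.05. The median log2 fold change was 0.12 over the 9 genes and 0.00085 over all genes, with 8 of 9 and 50.4% above 0. The 95% confidence intervals limited the difference to between -0.19 and 0.13 for *Sall1* and to between -0.18 and 0.22 for *Csf1r*.

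At 11% O2, where the same injections were compared, the 9 genes lay closer together. *Aif1* ran from 17.5 through 25.3 to 32.9 TPM in 9 monomer mice and from 21.8 through 25.7 to 44.9 TPM in 10 PFF mice. The groups overlapped, and the highest value was that of PFF replicate 8. The log2 fold changes of the 9 genes ran from -0.09 for *Csf1r* to 0.09 for *Aif1*, with a median of -0.01. The 9 adjusted p-values of the quasi-likelihood test of edgeR were each 0.9997. None of the 9 was called, beside 0% of all genes, and none had an unadjusted p under 0.05 by edgeR, DESeq2 or limma, where 3.92% of all genes did by edgeR. DESeq2 called 0.00513% of all genes and limma 0%. Above 0 stood 3 of the 9 genes and 49.6% of all genes. The 95% intervals still allowed a log2 difference of up to 0.38 for *Aif1* and down to -0.36 for *Siglech*.

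Breathing 11% O2 against 21% O2 was compared first in the monomer mice, where 9 of 9 genes had a higher mean at 11% O2 and none was called. *Cx3cr1* ran from 54.6 through 84.7 to 101 TPM in 11 mice at 21% O2 and from 78.1 through 98.9 to 122 TPM in 9 mice at 11% O2. The 4 highest mice breathed 11% O2, and the other values were mixed. Its log2 fold change was 0.24 ± 0.10, with an adjusted p of 0.115 by the quasi-likelihood test of edgeR. *Sall1*, which holds microglial identity, ran from 26.2 through 36.4 to 41.8 TPM and from 30.0 through 40.0 to 50.3 TPM, with a log2 fold change of 0.19 ± 0.08 and an adjusted p of 0.130. *Siglech* had a log2 fold change of 0.27 ± 0.13 and *Csf1r* of 0.22 ± 0.11, and the adjusted p was 0.171 for both. These 4 genes had an unadjusted p under 0.05 by edgeR, a share to be read against 27.7% of all genes. *Csf1r* ran from 86.9 through 123 to 156 TPM at 21% O2 and from 104 through 144 to 180.7 TPM at 11% O2, again with overlap. The others were *Aif1* at 0.18, *Gpr34* at 0.14, *P2ry12* at 0.13, *Itgam* at 0.12 and *Tmem119* at 0.04. No gene of the 9 was called, beside 7.23% of all genes, and DESeq2 and limma called none of them, beside 5.53% and 4.76% of all genes, with 4 and 3 at an unadjusted p under 0.05. The median log2 fold change was 0.18 over the 9 genes and -0.0060 over all genes, of which 47.9% stood above 0. Of other lists, 11 of 11 pan-microglial, 8 of 8 oligodendrocyte and 6 of 8 astrocyte genes also stood above 0, against 1 of 6 pan-neuronal genes.

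When the 6 mice that the authors left out were returned, with uncorrected counts and batch as a covariate, *Cx3cr1* was called at a log2 fold change of 0.36 and an adjusted p of 0.0453 in the edgeR test, as were 5.07% of all genes. *Cx3cr1* before correction stood at 118, 133 and 98.2 TPM in the 3 returned monomer mice at 11% O2, above the 95.7 TPM that was highest in the kept monomer mice at 21% O2. The 3 returned mice are of batch 3, which holds no monomer mice at 21% O2, and 8 of the 13 kept mice of batch 3 also lay above 95.7 TPM, up to 117 TPM. In 2 of these 3 mice, *Th* stood at 81.0 and 62.6 TPM and the 9 dopaminergic neuron genes summed to 808 and 691 TPM, below the 1302 TPM that was lowest in the kept mice. Their part in the call was not tested.

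In the PFF mice, the difference between 11% and 21% O2 was smaller in each of the 9 genes than in the monomer mice. The largest was that of *Sall1*, which ran from 27.0 through 33.9 to 41.1 TPM in 12 mice at 21% O2 and from 29.3 through 37.0 to 47.7 TPM in 10 mice at 11% O2. The groups overlapped, and its log2 fold change was 0.15 ± 0.08, with an adjusted p of 0.528 by the quasi-likelihood test of edgeR. *Csf1r* followed at 0.10 and *Itgam* at 0.09, and *Siglech* stood at -0.04. None of the 9 was called, beside 0.58% of all genes, and none had an unadjusted p under 0.05 by edgeR, DESeq2 or limma, where 10.7% of all genes did by edgeR. DESeq2 called 0.605% of all genes and limma 0.405%. The median was 0.04 over the 9 genes, 7 of which stood above 0 beside 46.8% of all genes.

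The interaction asks whether the difference between PFFs and monomer changed with O2. It was negative in 9 of 9 genes, from -0.03 for *Itgam* to -0.31 ± 0.18 for *Siglech*, with a median of -0.10. *Siglech* had an adjusted p of 0.432 by the quasi-likelihood test of edgeR, which was the smallest among the 9. None was called, beside 2.14% of all genes, and none had an unadjusted p under 0.05 by edgeR, DESeq2 or limma, where 15.4% of all genes did by edgeR. DESeq2 called 1.93% of all genes and limma 1.36%, and 49.7% of all genes stood above 0 by edgeR. The negative sign was not particular to the 9 genes. Above 0 stood 0 of 11 pan-microglial, 0 of 8 oligodendrocyte and 1 of 8 astrocyte genes, against 6 of 6 pan-neuronal genes. The 9 genes also varied together among mice, as given below, so that their signs are not independent. All the comparisons with monomer mice at 21% O2 share that group, so that the same mice enter the differences for PFFs at 21% O2, for 11% O2 in monomer mice and for the interaction.

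**Figure D2:**
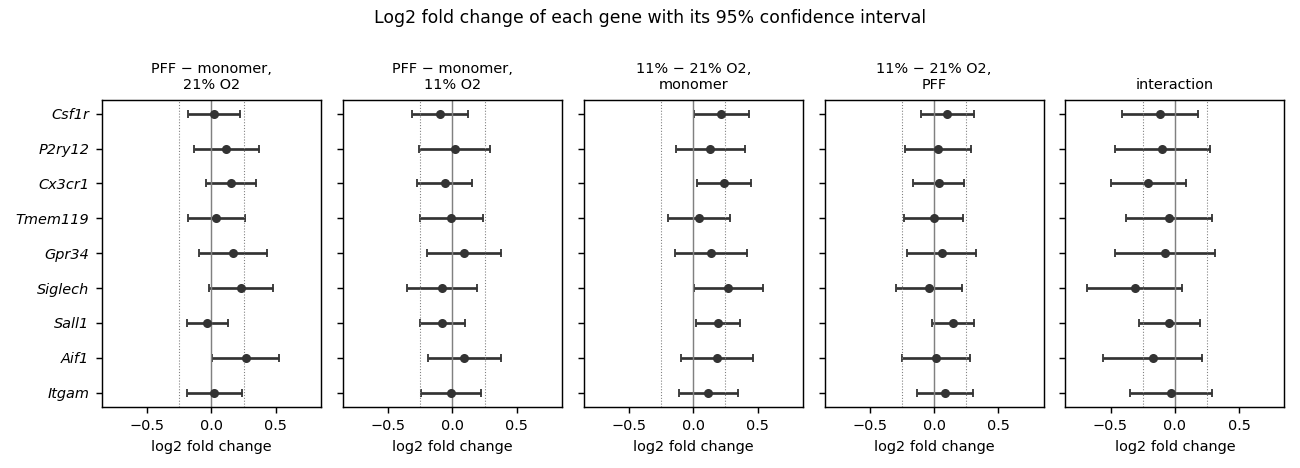
Log2 fold change (horizontal axis) of each of the 9 genes in the 4 comparisons and the interaction, with 95% confidence intervals from edgeR and dotted lines at -0.25 and 0.25. In monomer mice 9 of 9 points lie above 0 at 11% O2, for the interaction 9 of 9 lie below 0, and none of the 9 genes was called in any panel.

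Within batches, compared on uncorrected counts, the median differences for PFFs at 21% O2, for O2 in monomer mice and for the interaction were larger in batch 1 than in the corrected counts of all batches. For PFFs against monomer at 21% O2, 9 of 9 genes were higher with PFFs in batch 1, with log2 fold changes from 0.12 to 0.50 and a median of 0.34, and 3 of 9 were higher in batch 2, from -0.12 to 0.14 with a median of -0.04. In batch 1, *Cx3cr1* stood at 53.9, 62.7, 77.4 and 31.7 TPM in the 4 monomer mice and at 67.7, 71.7, 63.3 and 79.3 TPM in the 4 PFF mice. The value of 31.7 TPM belongs to the library that stood apart. Without it, the median of the 9 genes in batch 1 was 0.15, and 8 of 9 were above 0. In batch 2, *Cx3cr1* ran from 75.4 through 92.8 to 95.7 TPM in 7 monomer mice and stood at 75.1, 86.6, 107 and 97.5 TPM in 4 PFF mice, so that the groups overlapped. Above 0 stood 51.9% of all genes in batch 1, 51.4% there without that library, and 50.8% in batch 2. None of the 9 was called by edgeR, beside 0.0609% of all genes in batch 1, 0.0271% there without that library and 3.91% in batch 2, with 1, 0 and 0 of the 9 at an unadjusted p under 0.05.

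For 11% against 21% O2 in monomer mice, batch 1 is the only batch with both groups. *Cx3cr1* stood at 102, 74.4, 61.5 and 93.7 TPM in the 4 mice at 11% O2, 2 of them above the 4 mice at 21% O2. The 9 log2 fold changes ran from 0.24 to 0.55 with a median of 0.36, and that median was 0.20 without the library that stood apart, with 9 of 9 above 0 both times, where 50% and 50.8% of all genes were. *Cx3cr1* had an adjusted p of 0.159 with that library and 0.322 without it in the edgeR test. None of the 9 was called, beside 2.01% of all genes with it and 0.569% without, and *Cx3cr1* alone had an unadjusted p under 0.05. The interaction in batch 1 ran from -0.62 to -0.26 with the library and from -0.48 to -0.12 without it, with 0 of 9 and 48.1% of all genes above 0 both times. None was called, beside 0.0745% of all genes with the library and 0.0203% without, and none had an unadjusted p under 0.05.

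For PFFs against monomer at 11% O2, 1 of 9 genes was higher with PFFs in batch 1 and 4 of 9 were in batch 3, with medians of -0.14 and -0.01, beside 48.6% and 49% of all genes. For 11% against 21% O2 in PFF mice, 2 of 9 were higher at 11% O2 in batch 1, 9 of 9 in batch 2 and 5 of 9 in batch 3, with medians of -0.06, 0.13 and 0.04, beside 48.1%, 49% and 48.5% of all genes. Directions therefore differed between batches for these comparisons. *Aif1* in PFF mice illustrates the spread, at 22.8, 22.6 and 36.9 TPM at 11% O2 and 19.3, 22.6, 28.7 and 23.9 TPM at 21% O2 in batch 2. In batch 3 it stood at 23.9, 27.9, 30.6 and 26.0 TPM at 11% O2 and 24.7, 39.5, 21.5 and 36.6 TPM at 21% O2. Its log2 fold change was 0.24 in batch 2 and -0.19 in batch 3. None of the 9 was called in these fits of edgeR, and none had an unadjusted p under 0.05. Of all genes, 0% were called in batches 1 and 3 for PFFs at 11% O2, and 0.0406%, 0.0472% and 0.0136% in batches 1, 2 and 3 for O2 in PFF mice.

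**Figure D3:**
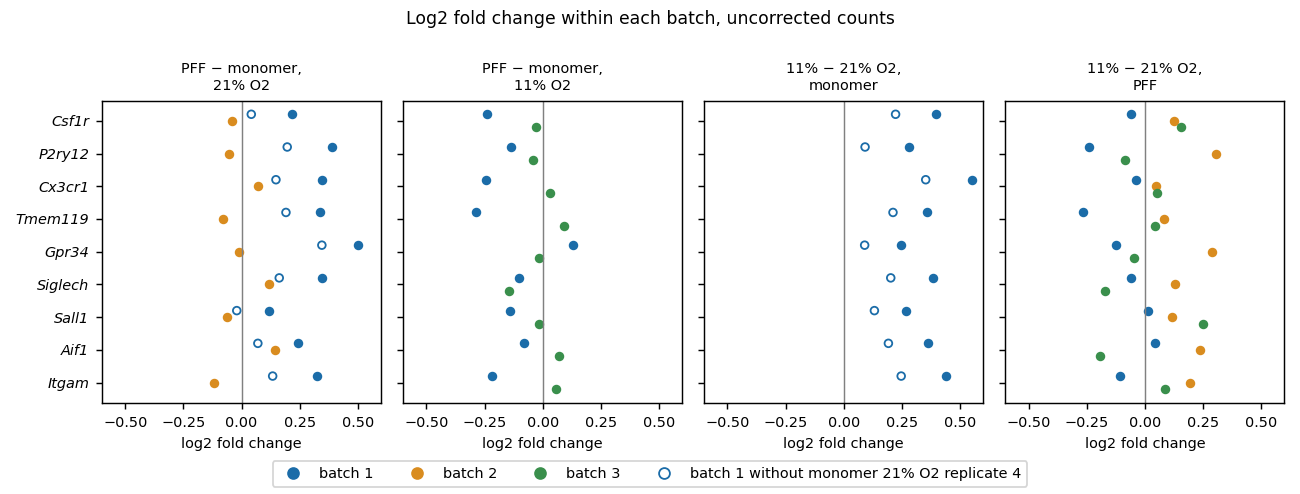
Log2 fold change (horizontal axis) of each of the 9 genes within each batch that held both groups, from uncorrected counts; open circles are batch 1 without monomer replicate 4 at 21% O2. For PFFs against monomer at 21% O2 the batch 1 medians are 0.34 with and 0.15 without that mouse, and batch 2 has a median of -0.04.

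Although no group difference was called, the 9 genes varied together from mouse to mouse. After the mean of each group in each batch was removed from log2 TPM before correction, 36 of 36 pairs had a positive Pearson correlation over the 42 mice, with a median *r* of 0.79 and a range from 0.41 to 0.95. Spearman's rho had a median of 0.77 and ranged from 0.26 to 0.96. By a permutation test with 100000 draws within group and batch, two-sided and adjusted over the 36 pairs, 36 pairs passed 0.05 by *r* and 34 by rho. The strongest pair was *Csf1r* with *Tmem119*, at an *r* of 0.95 and a rho of 0.96. Each had a permutation p of 1e-05, the smallest that 100000 draws can give. The *r* of this pair was 0.95 without the 2 mice farthest from the median of *Tmem119*. For each pair, the 2 mice farthest from the median of 1 gene were also left out, namely the gene that comes first in the opening list. The other gene of the pair was not used to choose them. The median *r* was then 0.72 and the lowest 0.18, for *Siglech* with *Sall1*. In 19 of 42 mice, the 9 genes stood on the same side of their group and batch means, 9 of these mice above and 10 below. Pairs of other genes were not computed. Instead, 14330 other genes with a mean of at least 1 TPM were set against the mean of the 9. Their median *r* with it was -0.038, and 12.9% of them had an *r* above 0.5. The points share library depth and the fixed sum of TPM.

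The pairs were not alike, and the following sets were chosen after their values were seen. *Csf1r*, *Cx3cr1* and *Tmem119* had *r* from 0.90 to 0.95 with each other, as did *P2ry12*, *Siglech* and *Gpr34*. Pairs across these sets ran from 0.69 to 0.79. *Sall1* had *r* of 0.82, 0.81 and 0.76 with *Csf1r*, *Cx3cr1* and *Tmem119*, and 0.41, 0.42 and 0.43 with *P2ry12*, *Siglech* and *Gpr34*. For *P2ry12* with *Sall1*, the adjusted p was 0.0343 for *r* and 0.118 for rho by the permutation test. The *r* of that pair was 0.26 without the 2 mice farthest from the median of *P2ry12*. *Sall1* also had the lowest correlation with the mean of the other 8 genes, at 0.64, where the remaining genes lay between 0.84 and 0.92. Its residuals varied least, with an SD of 0.18 on the log2 scale against 0.22 to 0.26 for the others.

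**Figure D4:**
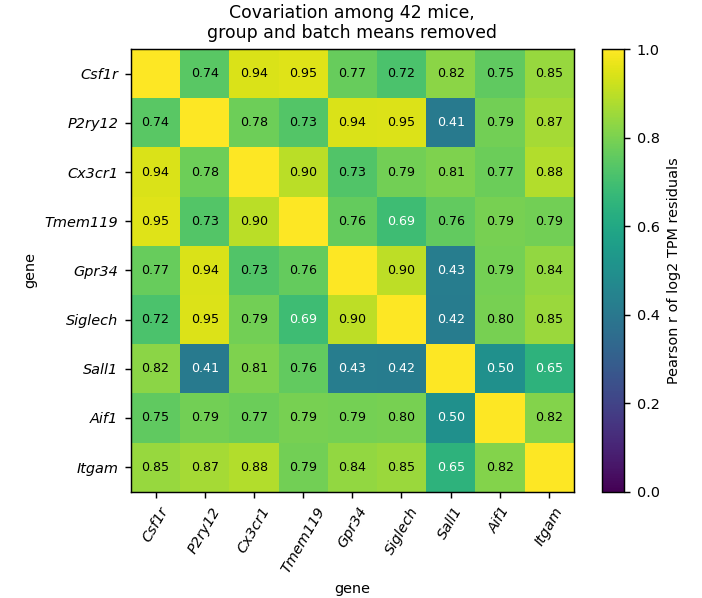
Pearson correlation (color, from 0 to 1) of log2 TPM residuals for each pair of the 9 genes over 42 mice, after group and batch means were removed. *Sall1* has *r* between 0.41 and 0.43 with *P2ry12*, *Siglech* and *Gpr34*, and 0.76 to 0.82 with *Csf1r*, *Cx3cr1* and *Tmem119*.

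The genes most like the mean of the 9, among 14330 others with a mean of at least 1 TPM, included 7 from the microglial lists and 2 from the astrocyte list among the first 10. They were *C1qb* (*r* of 0.95), the astrocyte connexin gene *Gja1* (0.95), the lysosomal protease gene *Ctss* (0.95), *Trem2* (0.95), *C1qc* (0.94), the astrocyte water channel gene *Aqp4* (0.94), *C1qa* (0.94), *Selplg* (0.93), *Rnase4* (0.93) and the nucleotide receptor gene *P2ry13* (0.93), each over 42 mice. *C1qa*, *C1qb* and *C1qc* encode the chains of complement C1q, which microglia make in the brain. By mean residual, the 9 genes had an *r* of 0.98 with 11 other homeostatic microglia genes, 0.97 with 11 pan-microglial genes, 0.93 with 6 myeloid transcription factors and 0.87 with 14 genes of disease-associated microglia. They also had an *r* of 0.90 with 8 astrocyte genes, -0.83 with 6 pan-neuronal genes and -0.70 with 9 dopaminergic neuron genes. For 8 oligodendrocyte genes *r* was 0.43, for 5 red blood cell genes 0.52 and for 5 border macrophage genes 0.52. These values describe mice of the same group and batch. Within groups, astrocytic levels therefore moved with the microglial ones and neuronal levels moved against them. Their part in the group comparisons was not tested.

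**Figure D5:**
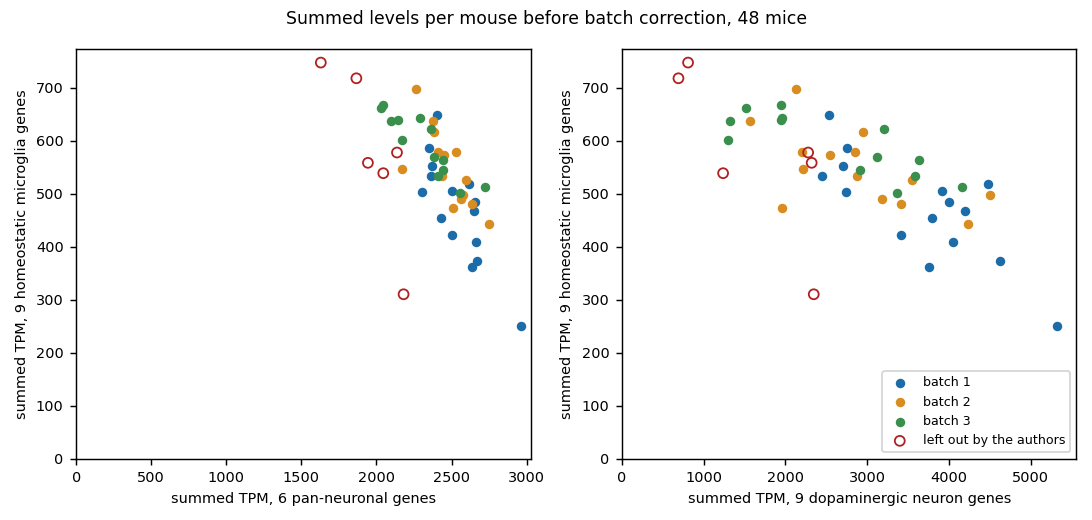
Summed TPM of the 9 homeostatic microglia genes (vertical axis) against that of 6 pan-neuronal genes (left) and 9 dopaminergic neuron genes (right), before batch correction, with 1 point per mouse for 48 mice. The library at 249.7 TPM on the vertical axis is monomer replicate 4 at 21% O2, with 5328 TPM of dopaminergic neuron genes, and the left-out mouse at 309.9 TPM had 3134594 counts.

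To see the 9 genes beside other microglial genes, each was set against the mean log2 TPM of the 11 pan-microglial genes of the same mouse, which include *C1qa*, *Tyrobp* and *Ptprc*. On this scale, PFFs against monomer at 21% O2 had a median difference of -0.05 over the 9 genes, with 2 of 9 above 0. *Aif1* stood 0.06 higher and *Siglech* 0.06 higher with PFFs, whereas *Sall1* stood at -0.21, *Csf1r* at -0.15, *Itgam* at -0.15 and *Tmem119* at -0.14. The 11 reference genes themselves had a median log2 fold change of 0.19 in this comparison, with 11 of 11 above 0. A difference below 0 on this scale is therefore not by itself a lower level of the gene. The comparison of 11% with 21% O2 in monomer mice had a median of 0.01, with 5 of 9 above 0, from -0.14 for *Tmem119* to 0.12 for *Siglech*. For PFFs at 11% O2 the median was -0.05, and for O2 in PFF mice it was 0.01. These differences were not tested. *Sall1* on this scale stood at a mean log2 ratio of -0.77 with an SD of 0.24 in the 11 monomer mice at 21% O2, against -0.98 with an SD of 0.25 in the 12 PFF mice.

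The ligands that act on these receptors were examined as a list of 7 genes, of which 1 was called for 11% against 21% O2 in monomer mice, beside 7.23% of all genes, and none in the other 4 comparisons. In that comparison 7 of 8 endothelial genes, 5 of 5 pericyte genes and 5 of 5 red blood cell genes were called higher, with median log2 fold changes of 0.52, 0.58 and 1.32, and their part in the calls that follow for ligands, receptors and other microglial genes was not tested. Only batch 1 held both monomer groups. All these calls come from the batch-corrected counts of all batches, and no fit within batch 1 or with batch as a covariate is given for them. *Tgfb1*, the cytokine gene that sustains the resting state, rose at 11% O2 in monomer mice, from 3.95 through 5.25 to 6.59 TPM at 21% O2 to 4.72 through 6.30 to 8.85 TPM. Its log2 fold change was 0.32 ± 0.11, with an adjusted p of 0.0495 by the quasi-likelihood test of edgeR, and the ranges overlapped. *Csf1*, a ligand of CSF1R, had 0.23 ± 0.08 in that comparison, with an adjusted p of 0.0478 but a fold change under the threshold, and *Il34*, the other ligand, had -0.15 with an adjusted p of 0.0971. *Cx3cl1*, which encodes fractalkine, ran from 120 through 134 to 156 TPM with monomer and from 101 through 120 to 142 TPM with PFFs at 21% O2. Its log2 fold change was -0.19 ± 0.06 with an adjusted p of 0.0342 in the same test, again under the fold threshold; its receptor gene *Cx3cr1* had 0.15 in the same comparison. *Tgfb2*, *Tgfb3* and *Cd200* were called in none of the 5 comparisons, with log2 fold changes between -0.23 and 0.17.

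Among the lists of TGF-β receptors and SMADs, myeloid transcription factors and other homeostatic microglia genes, 1 of 7, 1 of 7 and 2 of 11 genes were called for 11% against 21% O2 in monomer mice, again beside 7.23% of all genes. These calls carry the same imbalance of batches as those for the ligands. Of the first list, *Tgfbr2*, which encodes a TGF-β receptor chain, rose at 11% O2 in monomer mice, with a log2 fold change of 0.51 and an adjusted p of 0.000344 in edgeR's test. Of 7 myeloid transcription factors, *Spi1*, which encodes PU.1, rose in that comparison by 0.39, with an adjusted p of 0.0149. Of the 11 other homeostatic microglia genes, *Ltc4s* rose by 0.48 and *Olfml3* by 0.41, with adjusted p of 0.0191 and 0.0201, and the list had a median of 0.15 beside 0.18 for the 9 genes described here. No gene of these 3 lists was called in any of the other 4 comparisons. Among 11 pan-microglial genes and 14 tested genes of disease-associated microglia, none was called in any comparison. The medians for PFFs at 21% O2 were 0.19 and 0.18, with 11 of 11 and 13 of 14 genes above 0, where 50.4% of all genes stood above 0.

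Transcripts listed for border macrophages and for blood-borne immune cells were low in the tissue, which does not by itself give the number of such cells. The 8 border macrophage genes summed to 6.84 to 41.1 TPM across the 42 mice, against 376 to 799 TPM for the 9 genes, and none was called. For PFFs at 11% O2 they had a median log2 fold change of -0.43 with 0 of 8 above 0, where the 9 genes had -0.01. The 9 monocyte and neutrophil genes summed to 0.883 to 17.97 TPM, with *Ly6g* at 0 in the 11 monomer mice at 21% O2, and 1 of them, *Ccr2*, could be tested. The 9 lymphocyte genes summed to 0.945 to 4.98 TPM, and none passed the filter. Beside the higher means of the 9 genes at 11% O2 in monomer mice, 5 of 5 red blood cell genes were called higher, with *Hba-a1*, *Hbb-bs* and *Hba-a2* at log2 fold changes of 1.31, 1.19 and 1.32, and their summed TPM had a median of 2068 at 11% O2 and 1036 at 21% O2. In the same comparison 3 of 8 oligodendrocyte genes were called higher, beside the endothelial and pericyte genes given above. None of 8 astrocyte genes, 6 pan-neuronal genes or 9 dopaminergic neuron genes was called. The part of these cell types in the levels of the 9 genes was not tested.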

How the data were processed

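Per the study's methods, the authors removed reads of ribosomal DNA, aligned the rest to mm10 with STAR 2.7.5a, removed duplicates with Picard 2.21.9 and counted reads per GENCODE vM24 gene with featureCounts 2.0.1. They deposited raw counts and TPM for 55385 genes in 48 mice, and counts and TPM after ComBat-seq correction by batch for 19601 genes in 42 mice. The deposited counts are whole numbers per gene, and the deposited TPM are scaled to transcript length and library. Here, the corrected counts of all 4 groups entered a single fit without a batch term (R 4.3.3, edgeR 4.0.16, TMM factors, filterByExpr by group), and each comparison was a quasi-likelihood test with Benjamini–Hochberg adjustment over 14839 genes. Genes were called where the adjusted p was below 0.05 and the size of the log2 fold change was over 0.25. DESeq2 1.42.0 and limma 3.58.1 on log2(TPM + 1) served as alternatives. Correlations used log2(TPM + 0.1). The fits and the permutation test were tested on simulated data. The members, gene lists and rules were chosen with earlier results of these data known. Genes named were the 9 members, up to 3 called genes of each list with the smallest p, the ligands, and the 10 genes most like the members. No pair of libraries of a group agreed within sampling noise. The study matched mice by weight, age, delivery date and, where possible, cage before random assignment. The labels do not name the matched mice, so that the tests are unpaired. P-values from corrected counts measure the spread between mice that remained after batch correction. The fit took no account of that correction, although some batches lacked a monomer group. For O2 in monomer mice, it called 1073 of 14839 genes. Uncorrected counts of 42 mice with batch as a covariate gave 657 of 14793. None of the 9 members was called in either fit.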

Additional observations from a re-analysis of the deposited data

Results flagged for a closer look

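In PFF mice at 11% O2, replicate 8 lay far above the other 9 mice of its group in batch-corrected TPM for 4 of the 9 genes, by a gap that was 0.631, 0.618, 0.467 and 0.609 of the group's range. The gap was smaller before correction, at 0.361 for *Aif1*, 0.469 for *P2ry12*, 0.442 for *Siglech* and 0.584 for *Gpr34*, and only *P2ry12* and *Gpr34* would be singled out there. After correction *Aif1* stood at 44.9 TPM, *P2ry12* at 165.5 TPM, *Siglech* at 52.9 TPM and *Gpr34* at 87.6 TPM. In all, 18 groups of 9 or 10 mice were examined in this way, namely the 9 genes in the monomer and PFF mice at 11% O2. The larger groups at the higher O2 level were not examined, so that outlying mice there were not sought by this rule. Chance flags about 1 in 20 groups, although these 4 genes came from the same library and vary together. Red blood cell genes summed to 4603 TPM before correction in that mouse, the highest of the 14 kept mice of batch 2, and their part in these levels was not tested.

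The 6 mice that the authors left out enter none of the comparisons above save the fit on 48 mice. Before correction, 20 of their 54 values lay above the highest kept monomer mouse at 21% O2. This limit crosses batches, since 17 of the 20 values come from the 3 left-out mice of batch 3, which holds no monomer mice at 21% O2. Of the 117 values of the 13 kept mice of batch 3, 33 lay above the same limits, and 7 of the 27 values of the left-out mice of batch 3 lay above the highest kept mouse of their own batch. In monomer replicate 8 at 11% O2, all 9 genes lay above the highest kept monomer mouse at 21% O2. *Aif1* stood at 36.4 TPM, *Cx3cr1* at 118, *P2ry12* at 140, *Tmem119* at 117, *Csf1r* at 156, *Itgam* at 16.9, *Siglech* at 44.7, *Sall1* at 49.0 and *Gpr34* at 68.9 TPM. In monomer replicate 9 at 11% O2, the values above those monomer limits were *Aif1* at 35.8 TPM, *Cx3cr1* at 133, *Tmem119* at 122, *Csf1r* at 158, *Siglech* at 41.3 and *Sall1* at 49.3 TPM. Monomer replicate 12 at 11% O2 had *Cx3cr1* at 98.2 TPM and *Sall1* at 43.7 TPM. *Aif1* alone lay above that limit, 24.7 TPM, in PFF replicates 2 and 5 at 11% O2, at 28.4 and 31.9 TPM, and in monomer replicate 10 at 21% O2, at 25.2 TPM. PFF replicate 2 at 11% O2 held 3134594 counts, with red blood cell genes at 29686 TPM where the kept mice reached at most 5344 TPM, and with *Siglech* at 14.6 TPM and *Gpr34* at 24.0 TPM, below each kept mouse. It enters the fit on 48 mice.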

How the results depend on the processing

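Of 594 log2 fold changes of the 9 genes under other fits, 556 kept their sign and 38 reversed, and among 1890 that left out each of the 42 mice in turn 60 reversed and none was called. No gene of the 9 was called under any of these settings except *Cx3cr1* for 11% against 21% O2 in monomer mice, where 1 gene was called with uncorrected counts of 48 mice and batch as a covariate (0.36, edgeR adjusted p of 0.0453). The cause was not tested. The reversed values are log2 fold changes, and the cause of the reversals was not tested. For PFFs against monomer at 21% O2, batch 2 alone gave -0.053 for *P2ry12*, -0.078 for *Tmem119*, -0.043 for *Csf1r*, -0.12 for *Itgam* and -0.010 for *Gpr34*. For *Sall1* in that comparison, batch 1 alone gave 0.12 and uncorrected counts with no batch term gave 0.0081. Without the library that stood apart, batch 1 gave -0.021 for *Sall1*, a sign that was not reversed. For PFFs against monomer at 11% O2, batch 1 alone gave -0.078 for *Aif1* and -0.13 for *P2ry12*. Batch 3 alone gave 0.030 for *Cx3cr1*, -0.042 for *P2ry12*, 0.090 for *Tmem119*, 0.059 for *Itgam* and -0.014 for *Gpr34*. In this comparison *P2ry12* stood at -0.023 with uncorrected counts and batch as a covariate, -0.0015 with no batch term, -0.11 with 48 mice, -0.014 with limma on log2(TPM + 1), with or without a minimum mean of 1 TPM, and -0.014 on log2(TPM + 0.1), and *Gpr34* stood at -0.0036 with 48 mice. For 11% against 21% O2 in PFF mice, batch 1 alone gave -0.040 for *Cx3cr1*, -0.24 for *P2ry12*, -0.060 for *Csf1r*, -0.11 for *Itgam* and -0.12 for *Gpr34*. Batch 2 alone gave 0.080 for *Tmem119* and 0.13 for *Siglech*, and batch 3 alone gave -0.19 for *Aif1*, -0.085 for *P2ry12*, 0.042 for *Tmem119* and -0.047 for *Gpr34*. *P2ry12* stood at -0.0090 with batch as a covariate, -0.0040 with no batch term and -0.068 with 48 mice, where *Cx3cr1* stood at -0.00071 and *Gpr34* at -0.025.

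The labels do not say whether replicate numbers pair the mice, and expression cannot decide it, because matched mice need not correlate. Same-numbered mice correlated at a median of 0.0033 over 54 pairs, 21 of them over 0.1, and 5 of 42 mice correlated best with their own number. With a replicate block, none of the 9 genes was called in the 5 comparisons (smallest adjusted p of 0.0820 by edgeR), and *Aif1* for O2 in PFF mice stood at -0.018.

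Leaving out each mouse in turn turned the sign of 18 of the 45 values. For PFFs at 21% O2 the values ran from -0.023 to 0.057 for *Csf1r*, -0.029 to 0.088 for *Itgam* and -0.0017 to 0.092 for *Tmem119*. For PFFs at 11% O2 they ran from -0.012 to 0.14 for *Aif1*, -0.019 to 0.13 for *Gpr34*, -0.055 to 0.029 for *Itgam*, -0.081 to 0.054 for *P2ry12* and -0.066 to 0.040 for *Tmem119*. For O2 in monomer mice they ran from -0.00065 to 0.095 for *Tmem119*. For O2 in PFF mice they ran from -0.093 to 0.090 for *Aif1*, -0.0037 to 0.075 for *Cx3cr1*, -0.047 to 0.11 for *Gpr34*, -0.065 to 0.099 for *P2ry12*, -0.11 to 0.044 for *Siglech* and -0.060 to 0.046 for *Tmem119*. For the interaction they ran from -0.10 to 0.016 for *Itgam*, -0.088 to 0.0040 for *Sall1* and -0.10 to 0.0024 for *Tmem119*. The fit of batch 1 without monomer replicate 4 at 21% O2 was chosen after seeing the data. The median correlation of the 9 genes was 0.72 with corrected TPM and 0.80 with TMM-scaled CPM. At 81 to 281 batch-corrected counts per mouse, *Aif1* carries more counting error than *Csf1r* at 1638 to 4109, although corrected counts are not the reads themselves.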
